A study of Oryza sativa and Oryza rufipogon with 8 samples.

Results

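The SPX proteins are the phosphate sensors of rice, and this is an account of their 9 genes in roots of *Oryza sativa* with and without iron (Fe). Members were taken by name, whether or not they changed. They are the single-domain genes *SPX1* to *SPX6*, and *SPX-MFS1*, *SPX-MFS2* and *SPX-MFS3*, whose proteins carry an SPX domain joined to a transporter domain. The family was chosen with earlier results of these data known. The study had already listed *SPX1* and *SPX2* as down-regulated without Fe in these libraries. All 9 are listed among the 35679 genes of the *O. sativa* data, and 8 of them had enough reads (a minimum of 5 counts in 2 or more of the 4 libraries) to enter the test, as did 25767 genes in all. In *O. rufipogon*, a wild rice, 2 genes out of 37071 listed and 21081 tested were followed, the *SPX1* gene ORUFI06G21760 and ORUFI03G26300, which the study pairs with *SPX2*.

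An SPX domain binds inositol pyrophosphates, whose level in the cell follows the supply of phosphate. When phosphate is plentiful, SPX proteins of rice hold the MYB transcription factor PHR2 and keep it from its sites in phosphate starvation genes. When phosphate runs short they let it go, and the transcripts of most single-domain SPX genes, themselves PHR2 targets, accumulate, so that in rice roots the level of these transcripts is widely read as a gauge of phosphate status. SPX-MFS proteins instead move phosphate across the membrane of the vacuole.

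Fe-deficient (−Fe) roots of *O. sativa* cv Nipponbare and of an *O. rufipogon* accession held by EMBRAPA were harvested 5 days after transfer to a solution with no Fe, and control (CC) roots of both species 5 days after transfer to a solution with 100 µM Fe-EDTA. All plants had the same base solution, which held 100 µM KH2PO4 as its source of phosphate, so that phosphate supply did not differ by design between −Fe and CC. Each of the 8 RNAseq libraries was a pool of RNA from 3 biological replicates of roots at the 3-leaf stage, with 2 libraries for each species and treatment (n = 2 for every mean below). A p-value therefore measures the spread between pools, and an exact two-sided permutation test of 2 libraries against 2 cannot give a p below 0.333.

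Levels are given in 2 scales. CPM values are estimated counts scaled to a common library size after TMM normalization, and they serve for comparing one gene between −Fe and CC. TPM values, as deposited, also take transcript length into account and serve for comparing genes with each other. Libraries held between 14758304 and 25312301 estimated counts, so that 3 counts, the least taken as a measurable level, are worth between 0.122 and 0.201 CPM, a limit that covers counting error only. The Fe treatment was visible in both species: the bHLH factor *IRO2*, which drives Fe acquisition genes, was higher under −Fe by 3.39 on the log2 scale in *O. rufipogon* and by 3.44 in *O. sativa*, and the Fe2+ transporter *IRT1* by 5.13 in *O. rufipogon* and 1.98 in *O. sativa*. All 3 root markers looked for were detected in every *O. sativa* library, and their summed level was lower under −Fe, at 1620 and 2014 TPM, than under CC, at 4230 and 3976 TPM. The 4 shoot markers summed to 377 and 164 TPM under −Fe and to 285 and 444 TPM under CC.

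In *O. sativa* roots, 5 of the 6 single-domain SPX genes fell under −Fe and neither of the 2 SPX-MFS genes tested passed in either direction. *SPX1*, *SPX2*, *SPX5* and *SPX6* were between 5.31 and 9.23 times lower, and *SPX3*, which was barely expressed, was 4.06 times lower. *SPX4* was the exception among single-domain genes, with a difference of only −0.25 on the log2 scale that did not pass. By edgeR's quasi-likelihood test at an adjusted p under 0.05 (FDR), 5 of the 8 tested members were lower and 0 were higher, where 3.66% of all tested genes were lower, 2.98% were higher and 6.63% were called in all. The 942 genes called lower became 338 without −Fe library 1, 362 without CC library 1 and 285 without CC library 2, and 4 members were called lower in each of these fits. The median log2 fold change was −2.21 over the 8 members, −2.53 over *SPX1* to *SPX6*, and −0.01 over all tested genes. The silicon transporter genes *Lsi1* and *Lsi2* among the root markers fell as well, by 1.45 and 1.16 on the log2 scale (edgeR adjusted p = 0.00369 and 0.0273, and 0.135 for *Lsi2* without −Fe library 1), and RCc3 differed by −0.91 (adjusted p = 0.0770, and 0.0444 without −Fe library 2 and 0.0449 without CC library 1). The part of these root marker differences in the SPX results was not tested, and in whole roots fewer cells of a type cannot be told apart from less RNA per cell.

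**Figure D1:**
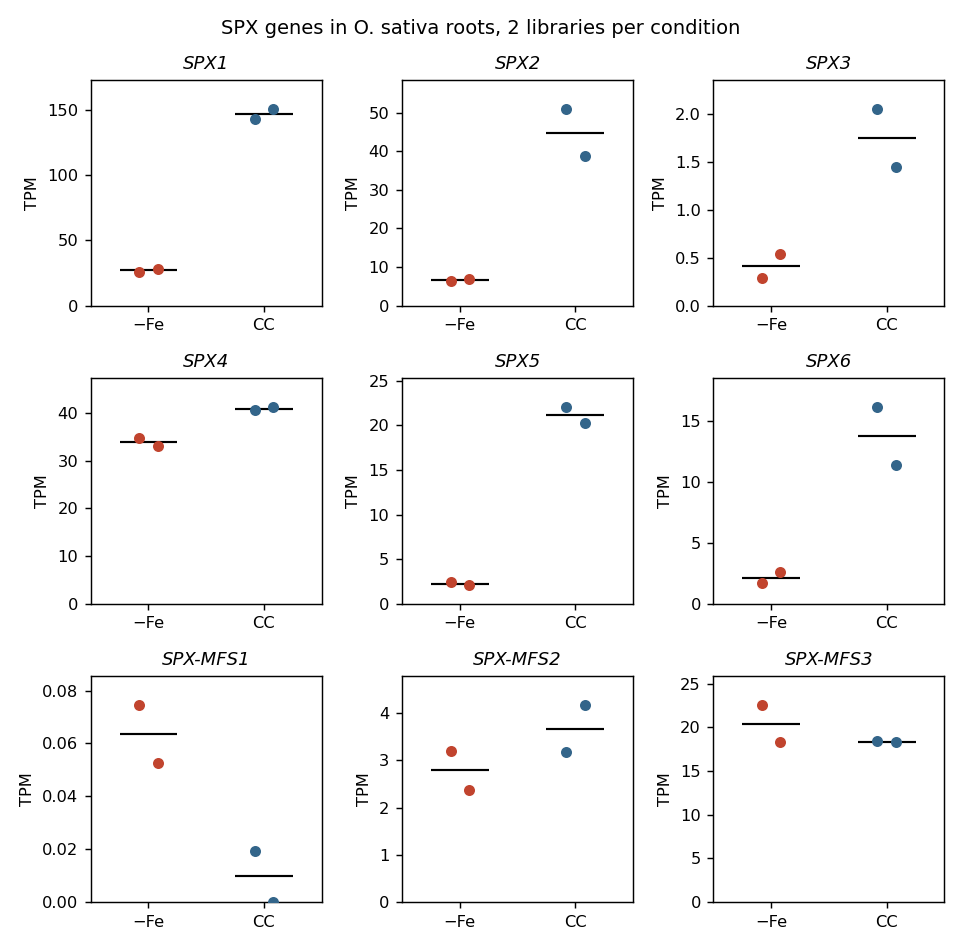
Level of each SPX gene in TPM (vertical axes, each from 0) in the 2 −Fe libraries (red) and the 2 CC libraries (blue) of *O. sativa* roots; points are libraries and the line is their mean. *SPX1*, *SPX2*, *SPX3*, *SPX5* and *SPX6* have both −Fe points far below both CC points, while *SPX4* differs little and *SPX-MFS1* is near 0 in every library.

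*SPX1* (OS06G0603600, chromosome 6) encodes a phosphate-dependent inhibitor of PHR2 and was the most abundant SPX gene of CC roots. It measured 26.9 and 30.6 CPM in −Fe roots, against 147.5 and 157.5 CPM in CC roots. Both −Fe libraries lay far below both CC libraries, and libraries of one treatment differed little from each other. The log2 fold change was −2.41 (SE 0.0918, 95% interval −2.62 to −2.20), which is 5.31 times lower (edgeR adjusted p = 1.36e-06). Of its 2 annotated transcripts, of 1279 and 1274 nt, the second carried between 99.1% and 100% of the TPM of the gene in every library. The first had 0 estimated counts in both −Fe libraries and 31.0 and 9.51 in the CC libraries, a difference that did not pass when all transcripts were tested, 1.67% of which were lower (edgeR adjusted p = 0.0767).

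*SPX2* (OS02G0202200, chromosome 2), whose protein inhibits PHR2 alongside SPX1, had a similar pattern at a lower level. Its values were 6.67 and 7.56 CPM in −Fe roots and 52.9 and 41.0 CPM in CC roots. The CC libraries differed more from each other than those of *SPX1*, yet remained well apart from the −Fe libraries. The log2 fold change was −2.72 (SE 0.151, 95% interval −3.07 to −2.37), or 6.59 times lower (edgeR adjusted p = 2.76e-05).

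*SPX5* (OS03G0406100, chromosome 3) and *SPX3* (OS10G0392600, chromosome 10) encode a pair of related proteins that also act as repressors of PHR2 in rice. *SPX5* had 0.905 and 0.813 CPM in −Fe roots, against 8.23 and 7.71 CPM in CC roots. This was the largest fall among the members, −3.21 on the log2 scale (SE 0.242, 95% interval −3.75 to −2.66) or 9.23 times lower (edgeR adjusted p = 8.5e-05), and it rested on 22 and 20 counts in the −Fe libraries and 192 and 178 in the CC libraries. *SPX3* had only 6 and 12 counts in −Fe roots, or 0.247 and 0.488 CPM, and 41 and 29 counts in CC roots, or 1.76 and 1.26 CPM. Its groups did not overlap, with −Fe below CC as for 27.1% of all tested genes. The log2 fold change of −2.02 (SE 0.475, 95% interval −3.10 to −0.94) passed narrowly (edgeR adjusted p = 0.0388). The call for *SPX3* was lost when any single library was left out, with an adjusted p of 0.214 without −Fe library 1, 0.0778 without −Fe library 2, 0.229 without CC library 1 and 0.142 without CC library 2, and DESeq2 gave 0.0871. Its size depended on the scale, at −0.95 by limma on log2(TPM + 1), which understates the change of so low a gene.

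*SPX6* (OS07G0614700, chromosome 7), another negative regulator of PHR2, measured 1.73 and 2.68 CPM in −Fe roots and 16.0 and 11.6 CPM in CC roots. Libraries of one treatment were spread by a similar proportion on both sides, and the gap between treatments was larger. The log2 fold change was −2.64 (SE 0.259, 95% interval −3.24 to −2.04), which is 6.24 times lower (edgeR adjusted p = 0.000758). The summed estimates of *SPX1*, *SPX3* and *SPX6* were not whole numbers in at least 1 library, by at most 0.273, 0.111 and 0.444 of a count, so that some reads of each had been divided with another gene.

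*SPX4* (OS03G0827500, chromosome 3) encodes the member that keeps PHR2 in the cytosol and that is broken down when phosphate is low, and its transcript is known in rice as the one among the single-domain genes that phosphate starvation does not raise. It measured 31.4 CPM in each of the −Fe libraries, against 37.1 and 37.7 CPM in CC roots. The −Fe libraries were lower than the CC libraries without overlap, which held for 27.1% of all tested genes. The log2 fold change of −0.25 (SE 0.0862, 95% interval −0.45 to −0.06) did not pass (edgeR adjusted p = 0.134), and its interval excludes a decrease of the size found in *SPX1*, *SPX2*, *SPX5* or *SPX6*. The shorter of its transcripts, of 1108 nt, carried between 82.3% and 92.8% of the TPM of the gene in the 4 libraries. The longer one, of 1257 nt, took 9.19% and 10.95% in −Fe roots and 17.7% and 7.23% in CC roots, with −Fe inside the range of CC.

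The SPX-MFS genes were not called, and no alternative, DESeq2 and limma included, called *SPX-MFS2*, *SPX-MFS3* or *SPX4*. *SPX-MFS3* (OS06G0129400, chromosome 6), encoding a phosphate transporter of the vacuolar membrane, had 40.6 and 34.7 CPM in −Fe roots and 33.2 and 33.5 CPM in CC roots, a log2 fold change of 0.17 (SE 0.101, 95% interval −0.05 to 0.40; edgeR adjusted p = 0.389). *SPX-MFS2* (OS02G0678200, chromosome 2) had 7.28 and 5.65 CPM in −Fe roots and 7.204 and 9.62 CPM in CC roots, which overlap, with a log2 fold change of −0.38 (SE 0.208, 95% interval −0.85 to 0.09; edgeR adjusted p = 0.362). Neither interval reaches a change of 1 on the log2 scale. *SPX-MFS1* (OS04G0573000, chromosome 4) had 4 and 3 counts in −Fe roots and 1 and 0 counts in CC roots, at or near the 3-count limit, and was not tested.

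Per length, the highest member of the family was *SPX4* in −Fe roots and *SPX1* in CC roots. Under −Fe, *SPX4* was the highest member in both libraries with 34.8 and 33.1 TPM, followed by *SPX1* with 26.1 and 28.4 TPM. *SPX-MFS3* came next with 22.5 and 18.4 TPM and *SPX2* after it with 6.41 and 6.94 TPM, and none of these neighbours overlapped. Below them, *SPX-MFS2*, *SPX5* and *SPX6* had means of 2.78, 2.25 and 2.16 TPM and overlapped, and *SPX3* had 0.287 and 0.540 TPM.

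Under CC, *SPX1* stood far above the others with 143 and 151 TPM. *SPX2*, with 50.9 and 38.8 TPM, spanned *SPX4*, with 40.7 and 41.2 TPM, and their order was not resolved. *SPX5* followed with 22.0 and 20.3 TPM, then *SPX-MFS3* with 18.4 and 18.3 TPM and *SPX6* with 16.1 and 11.4 TPM. The place of *SPX5* depends on its annotated length of 483 nt, the shortest of the family, since by CPM it was below *SPX6* in all 4 libraries. *SPX-MFS2* with 3.17 and 4.16 TPM and *SPX3* with 2.05 and 1.44 TPM were low, and *SPX-MFS1* was at or below 0.0744 TPM in every library of either treatment.

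**Figure D2:**
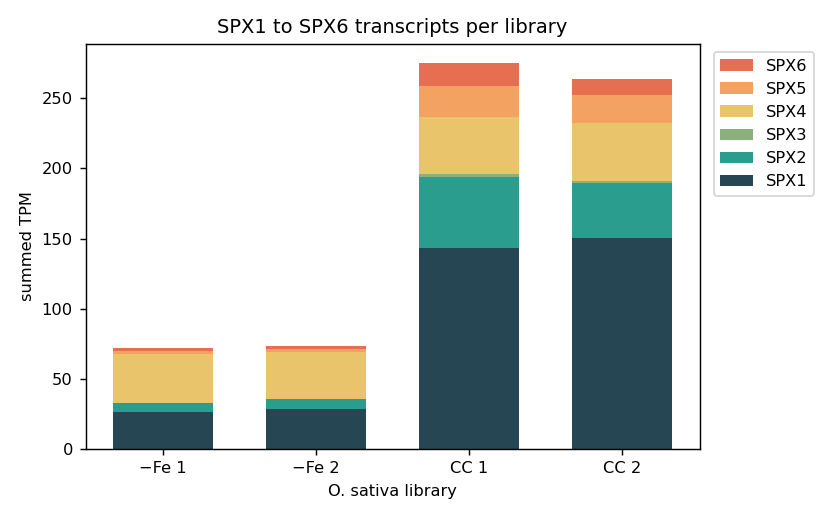
Summed TPM of *SPX1* to *SPX6* (vertical axis) in each *O. sativa* root library, stacked by gene, with the 2 −Fe libraries on the left and the 2 CC libraries on the right. The total is 71.8 and 73.5 TPM under −Fe and 275 and 264 TPM under CC, and *SPX4* is of similar height in all 4 bars.

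The 6 single-domain genes together amounted to 72.7 ± 1.23 TPM in −Fe roots, against 269.5 ± 7.90 TPM in CC roots (SD, n = 2 each), a total 3.71 times higher in CC. *SPX4* made up 46.7% ± 2.52 of that total under −Fe and 15.2% ± 0.591 under CC, as the stacked bars of summed TPM show. *SPX1* made up 37.5% ± 1.54 under −Fe and 54.6% ± 3.54 under CC, and *SPX2* made up 9.19% ± 0.359 under −Fe and 16.6% ± 2.69 under CC. The 3 SPX-MFS genes summed to 25.8 and 20.8 TPM in −Fe roots and to 21.6 and 22.5 TPM in CC roots, with CC inside the range of −Fe.

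Among the 942 genes called lower in *O. sativa*, the SPX genes were placed 39th (*SPX5*), 51st (*SPX2*), 54th (*SPX6*), 69th (*SPX1*) and 91st (*SPX3*) by the size of the fall. In the plot of fold change against mean level they lie below the bulk of genes of like level.

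**Figure D3:**
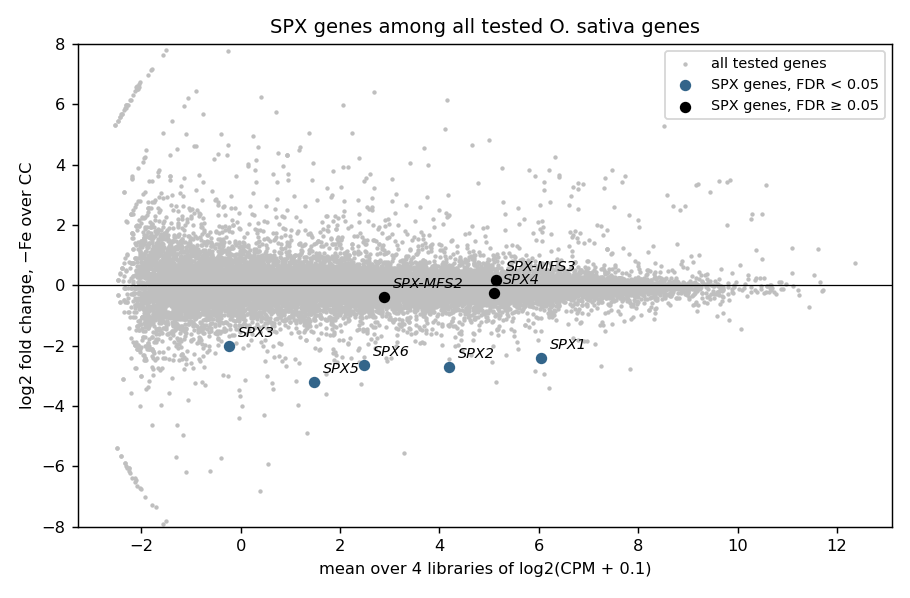
Log2 fold change of −Fe over CC (vertical axis) against mean level, log2(CPM + 0.1) over 4 libraries (horizontal axis), for tested *O. sativa* genes (grey), called SPX genes (blue) and SPX genes not called (black); 14 genes lie beyond 8 on the log2 axis and are not drawn. *SPX1* lies at the right of the called SPX genes, at −2.41, while *SPX4*, *SPX-MFS2* and *SPX-MFS3* lie close to 0.

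The 5 genes whose pattern over the 4 *O. sativa* libraries was nearest to that of *SPX1* were found by the distance between centred log2 CPM values, among 19280 genes averaging 50 counts or more. The nearest was OS08G0280100, annotated as a purple acid phosphatase, at a distance of 0.146. It had 2.10 and 2.28 CPM in −Fe roots and 13.0 and 12.9 CPM in CC roots. Next came OS01G0941800, annotated as a probable inactive purple acid phosphatase, at 0.155. OS11G0286800 (terpene cyclase family), OS03G0368300 (peroxidase) and OS01G0878900 (similar to a DOPA dioxygenase) followed at 0.156, 0.189 and 0.252. With 4 libraries in 2 treatments this likeness is mostly a likeness in fold change, and it is given as a description.

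The other genes of phosphate signalling were taken from a list of 18, of which 17 were tested. The long noncoding RNA gene *IPS1* was not analysed here, since its identifier (OS03G0146800) had no entry among the quantified genes. Of the 17, 5 were lower under −Fe, 2 were higher and the median log2 fold change was −0.12, beside the shares of 3.66% lower and 2.98% higher over all genes. The list was drawn up with earlier results of these data known, so these counts are not independent evidence. None of the 5 MYB genes whose proteins are partners of SPX proteins or their relatives passed the test. *PHR2* (OS07G0438800), the central activator of the phosphate starvation response, had 73.8 and 68.0 CPM in −Fe roots and 74.8 and 79.2 CPM in CC roots, a log2 fold change of −0.12 (SE 0.0800, 95% interval −0.30 to 0.06; edgeR adjusted p = 0.468). Of the 4 related MYB genes, *PHR1* (OS03G0329900) differed by 0.19, *PHR3* (OS02G0139000) by 0.49, *PHR4* (OS06G0703900) by −0.13 and *RLI1* (OS04G0665600) by 0.03, with edgeR adjusted p values between 0.0894 and 0.886. Of the 5, 1 (*PHR3*) was under an unadjusted p of 0.05, and DESeq2 and limma called none of them either.

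Of 5 other genes with an SPX domain, 0 were lower and 2 were higher, beside 3.66% lower and 2.98% higher over all tested genes. *NLA1* (OS07G0673200) and *NLA2* (OS03G0650900), which encode RING-type ubiquitin ligases, NLA1 being known to mark phosphate transporters for breakdown, were higher under −Fe. *NLA1* had 25.3 and 23.3 CPM in −Fe roots and 16.0 and 16.8 CPM in CC roots, a log2 fold change of 0.57 (SE 0.110, edgeR adjusted p = 0.0163). *NLA2* had 38.9 and 37.5 CPM in −Fe roots and 27.5 and 28.8 CPM in CC roots, a log2 fold change of 0.44 (SE 0.0895, edgeR adjusted p = 0.0210). Both sets of −Fe libraries lay above CC without overlap, as for 24.5% of all tested genes, but the calls depended on single libraries. The adjusted p of *NLA1* was 0.0844 without −Fe library 1, 0.137 without CC library 1 and 0.126 without CC library 2, and that of *NLA2* was 0.0844 without −Fe library 1, 0.0524 without −Fe library 2, 0.160 without CC library 1 and 0.146 without CC library 2.

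The PHO1 genes encode phosphate exporters with an SPX domain. *PHO1;2* (OS02G0809800), the main loader of phosphate into the root xylem, had 510.5 and 459.3 CPM in −Fe roots and 509.4 and 515.6 CPM in CC roots, a difference of −0.08 on the log2 scale (SE 0.0916, edgeR adjusted p = 0.702). *PHO1;1* (OS01G0110100) differed by −0.69 (SE 0.226, edgeR adjusted p = 0.121) and *PHO1;3* (OS06G0493600) by −1.10 (SE 0.291, edgeR adjusted p = 0.0598). For both, the −Fe libraries lay below CC, as for 27.1% of all tested genes, without passing the test.

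Of 7 genes for phosphate uptake and the starvation response, 5 were lower, beside 3.66% of all tested genes. Among the 5, *PAP10a*, *MGD3* and *PHF1* had already been listed by the study as down-regulated in these libraries. *PT2* (OS03G0150800), a phosphate transporter and target of PHR2, had 19.3 and 31.1 CPM in −Fe roots, against 212 and 176 CPM in CC roots. Its fall, by 2.94 on the log2 scale (SE 0.289, edgeR adjusted p = 0.0253), was in the range of the SPX genes, and the adjusted p was 0.0636 without CC library 1 and 0.0732 without CC library 2. *PT6* (OS08G0564000), another phosphate transporter, fell by 2.42 (SE 0.317, edgeR adjusted p = 0.00527), with 1.36 and 2.68 CPM in −Fe roots and 12.2 and 9.40 CPM in CC roots.

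Falls of smaller size were measured for the remaining called genes. *MGD3* (OS02G0802700), for a galactolipid synthase that replaces phospholipids, fell by 1.08 (SE 0.0762, edgeR adjusted p = 5.8e-05). *PAP10a* (OS01G0776600), for an acid phosphatase of the root surface, fell by 0.90 (SE 0.0767, edgeR adjusted p = 0.000173), and *PHF1* (OS07G0187700), which helps phosphate transporters leave the endoplasmic reticulum, by 0.74 (SE 0.0893, edgeR adjusted p = 0.00136). *PT8* (OS10G0444700), a further phosphate transporter, differed by −0.08, and *PHO2* (OS05G0557700), a ubiquitin-conjugating enzyme that lowers phosphate uptake, by −0.01, and both overlapped between treatments.

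**Figure D4:**
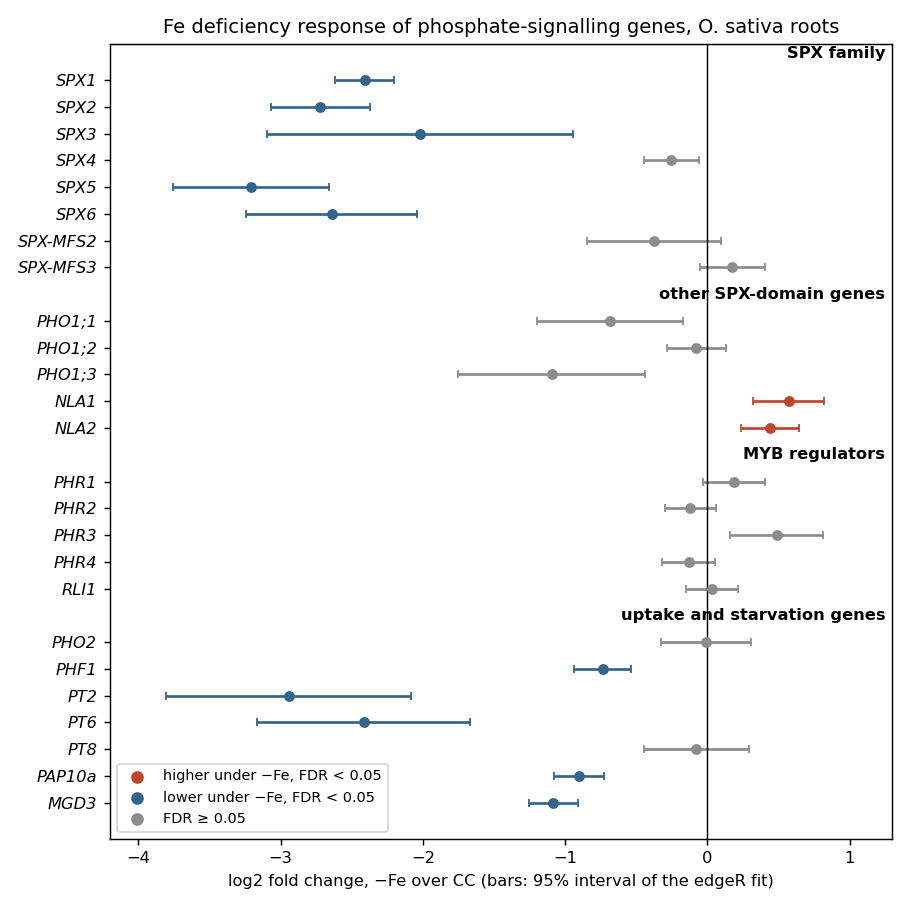
Log2 fold change of −Fe over CC (horizontal axis) with the 95% interval of the edgeR fit for the 8 tested SPX genes and 17 other phosphate-signalling genes of *O. sativa* (rows), blue where lower and red where higher at an adjusted p under 0.05, grey otherwise. *SPX1*, *SPX2*, *SPX5*, *SPX6*, *PT2* and *PT6* lie below −2, with *SPX3* beside them at −2.02 and a wide interval. The 5 MYB genes lie between −0.13 (*PHR4*) and 0.49 (*PHR3*) and are grey, though the interval of *PHR3* lies above 0.

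In *O. rufipogon* both genes that were followed also fell. The study had already listed both as down-regulated in these libraries, so their direction is not independent evidence. ORUFI06G21760, the *SPX1* gene on chromosome 6, had 95.5 and 80.0 CPM in −Fe roots, against 220.5 and 302.6 CPM in CC roots. The −Fe libraries lay below both CC libraries, as for 30.1% of tested genes, and the CC libraries were themselves further apart than those of *SPX1* in *O. sativa*. The log2 fold change was −1.58 (SE 0.185, 95% interval −2.03 to −1.13; edgeR adjusted p = 0.00508), or 2.98 times lower, where 4.15% of tested *O. rufipogon* genes were lower and 16% were called. These shares depended on single libraries: the 874 genes called lower became 3 without −Fe library 1 and 4 without −Fe library 2, and 4643 without CC library 1 and 2607 without CC library 2. The adjusted p was 0.0781 without −Fe library 1 and 0.0884 without −Fe library 2.

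ORUFI03G26300 had 44.7 and 45.0 CPM in −Fe roots, against 94.1 and 122.6 CPM in CC roots. Its log2 fold change was −1.27 (SE 0.154, 95% interval −1.65 to −0.90; edgeR adjusted p = 0.00549), or 2.42 times lower, with an adjusted p of 0.119 without −Fe library 1 and 0.0985 without −Fe library 2. The identifier places it on chromosome 3, whereas *SPX2* is on chromosome 2, its annotated transcript of 3158 nt is longer than the 1287 nt of *SPX2*, and its estimates were up to 0.460 of a count off a whole number. It is therefore named here by its identifier, as the gene the study pairs with *SPX2*.

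Genes of *O. rufipogon* annotated with the cellular response to phosphate starvation were taken from tables of genes that the study found changed in these libraries, so that their direction is not independent evidence. Apart from the genes followed above there were 3 of them. Whether ORUFI03G21570 or ORUFI05G16010 is itself an SPX gene was not examined. ORUFI03G21570 had 21.3 and 15.7 CPM in −Fe roots and 54.4 and 85.3 CPM in CC roots, a log2 fold change of −1.92 (SE 0.263, edgeR adjusted p = 0.00818). ORUFI01G36050, which the study pairs with *PAP10a* of *O. sativa*, differed by −1.66 (SE 0.183, edgeR adjusted p = 0.00443) and ORUFI05G16010 by −0.78 (SE 0.158, edgeR adjusted p = 0.0267). All 3 calls rested on both −Fe libraries. Without −Fe library 1 the adjusted p was 0.0799 for ORUFI03G21570, 0.0764 for ORUFI01G36050 and 0.122 for ORUFI05G16010. Without −Fe library 2 it was 0.1002 for ORUFI03G21570, 0.0795 for ORUFI01G36050 and 0.275 for ORUFI05G16010.

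**Figure D5:**
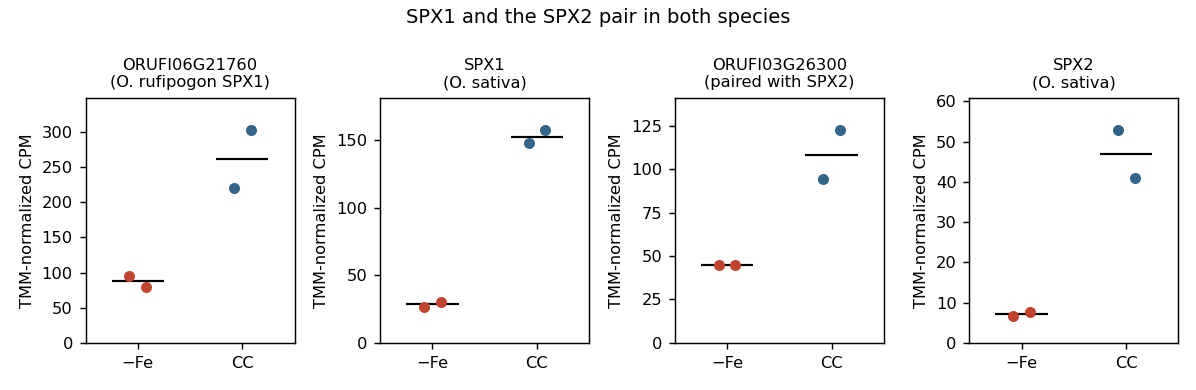
TMM-normalized CPM (vertical axes, each from 0) of ORUFI06G21760 and *SPX1*, and of ORUFI03G26300 and *SPX2*, in −Fe (red) and CC (blue) root libraries; points are libraries and lines are means of 2. All 4 genes have both −Fe libraries below both CC libraries, as did 27.1% of tested *O. sativa* and 30.1% of tested *O. rufipogon* genes.

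Responses of the 2 species were compared by the interaction of species and treatment over 102 ortholog pairs, which the study had chosen for changing in both species in these libraries, and of which 36 (35.3%) passed, against 21 without *O. sativa* CC library 2, 22 without *O. sativa* CC library 1 and 22 without *O. sativa* −Fe library 1. The fall of *SPX1* was smaller in *O. rufipogon*, at −1.58, than in *O. sativa*, at −2.41, a difference of 0.83 on the log2 scale (SE 0.208, 95% interval 0.38 to 1.28; edgeR adjusted p = 0.00876). Without *O. sativa* CC library 2 the difference was 0.78 with an adjusted p of 0.0564. Between ORUFI03G26300 and *SPX2* the log2 fold changes were −1.27 and −2.72, a difference of 1.45 (SE 0.239, 95% interval 0.93 to 1.97; edgeR adjusted p = 0.000675). Each species was quantified on its own transcripts, so levels were not compared between species.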

How the data were processed

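Roots of 2 rice species were measured by RNAseq in 8 libraries, grouped by their labels. Before quantification the authors discarded low-quality reads (PHRED below 30), used Trim Galore against adapters and took 12 nt off the start of each read. They then quantified transcripts with Kallisto, whose version is not given in the sources used here; the submitters' processing notes name IRGSP-1.0 as the genome build for both species. The deposited tables give estimated counts and TPM per transcript. The authors' estimated counts are fractional where Kallisto divides reads between similar transcripts, which was the case, by over 0.01 of a count, for 37.1% of *O. sativa* and 24.4% of *O. rufipogon* genes.

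Estimated counts were summed per gene and rounded. Genes with at least 5 counts in at least 2 libraries of a species were tested for −Fe against CC by quasi-likelihood in edgeR 4.0.16 (robust fit, TMM; R 4.3.3), with Benjamini-Hochberg adjustment over all tested genes and an FDR of 0.05. The same test was run on single transcripts. Standard errors are the log2 fold change divided by the square root of F, and intervals use the degrees of freedom of the same test. The interaction was fitted over 102 pairs with all 8 libraries. The code was tested on simulated data. Replicates of a group differed by more than sampling noise, with a chi-square per degree of freedom between 4.69 and 26.8.

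The alternatives were DESeq2 1.42.0, RLE scaling in edgeR, fits with no filter or with a floor of 10 counts in each library, log2(TPM + 1) and log2(TPM + 0.1) in limma 3.58.1, the replicate number as a block, the most abundant transcript and leaving out each library. Leaving one out leaves a group with 1 library, assumed to vary as the others. The genes named are all members, the whole list of phosphate-signalling genes, the 5 genes nearest to *SPX1* and the annotated phosphate starvation genes of *O. rufipogon*. The members and lists were chosen with earlier results of these data known. The names of NLA1, NLA2, PHF1, PT2, PAP10a, MGD3 and Lsi1 match annotations in the study's tables, and the others are general names for rice loci given with their identifiers. Coordinates and sequences were not used here.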

Additional observations from a re-analysis of the deposited data

Results flagged for a closer look

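The fall of *SPX1* under −Fe differed between the species, by 0.83 on the log2 scale for *O. rufipogon* minus *O. sativa*, by the test of the interaction itself. The −Fe libraries were lower than the CC libraries in both species, and the call was lost without *O. sativa* CC library 2 (edgeR adjusted p = 0.0564). The response of ORUFI03G26300 differed from that of *SPX2* by 1.45 in the same test, and this call was kept in every alternative run. The doubt about the identity of this pair, on chromosomes 3 and 2, applies to the second difference.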

How the results depend on the processing

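For the SPX genes and pairs, 137 of 149 comparisons of 12 results with an alternative kept direction and call, 12 lost the call and 0 reversed. The losses were those of *SPX3* in 7 of 12 alternatives, of the 2 *O. rufipogon* genes without either −Fe library, and of the *SPX1* interaction without 1 library. Of these 7, 1 was the fit with the *SPX3* transcript tested among all transcripts (edgeR adjusted p = 0.106), and with at least 10 counts in every library it was not tested. The count of members lower was 4 or 5 in every alternative. Leaving out one library gave between 613 and 1194 called genes in *O. sativa* (1709 with all), between 113 and 9604 in *O. rufipogon* (3378 with all) and between 21 and 41 interactions (36 with all). Leaving one out also turned the sign of 4 genes not called with all libraries: the range of the log2 fold change was −0.0098 to 0.0973 for *RLI1*, −0.30 to 0.15 for *PT8*, −0.13 to 0.0023 for *PHO1;2* and −0.15 to 0.14 for *PHO2*. Among other alternatives, *PT2* was not called with no filter (edgeR adjusted p = 0.0579), *NLA2* not with limma on either TPM scale (0.0557 and 0.0548), and *PHO1;3* was called with no filter (edgeR adjusted p = 0.0357) and with crossed pairing.

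Same-numbered libraries are not said to share a batch, and their deviations correlated by −0.142 in *O. sativa* and 0.101 in *O. rufipogon*. With the replicate block, 1717 genes were called in *O. sativa*, 3489 in *O. rufipogon* and 29 interactions. The members lower were then 4, without *SPX3* (edgeR adjusted p = 0.0747), and *PT2*, *Lsi1* and *Lsi2* were not called, with adjusted p values of 0.184, 0.126 and 0.281, while RCc3 was called lower (0.000382). A crossed pairing in *O. sativa*, added after seeing the data, called 2036 genes and 5 members. Precision is limited by 2 libraries per group and, for *SPX3* and *SPX-MFS1*, by counts of 0 to 41.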
